A study of Mus musculus with 20 samples.

Results

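Hepatocyte identity is held by a small set of transcription factors, and 9 of their genes are described here across wild-type liver, liver whose hepatocytes lack functional EED, and both genotypes after surgery. The genes are Hnf4a, Foxa1, Foxa2, Foxa3, Cebpa, Cebpb, Nr1i2, Nr1i3 and Nr5a2. They were taken by name from the count tables, where they are 9 of 46603 Ensembl identifiers, after the identifiers were matched to GENCODE M21 symbols. All 9 were found, and all 9 passed the filter on low counts that left 14661 genes.

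RNA was sequenced from liver of male mice aged 2 months in 4 groups of 5 samples. The wild-type mice (WT) were C57BL/6J bought from a vendor. The knockout mice (EedHepKO, written KO) were bred from a line carrying Cre under the albumin promoter and a line with loxP sites around exons 3 and 6 of Eed, so that polycomb repressive complex 2 (PRC2) loses its function in hepatocytes. In both genotypes the liver resected in a partial hepatectomy (PHx), lobes 1, 2 and 3, gave the baseline sample. The remnant, lobes 4, 5 and 6, gave the sample after PHx, at 30 h in 1 mouse per genotype, at 40 h in 2 and at 48 h in 2. Genotype cannot be told apart from colony of origin, Cre or flox alleles, since no sample carries one of these alone, and the response to PHx cannot be told apart from lobe. The 20 samples came from 5 KO mice and, if WT baseline replicate 1 is from WT mouse 1, from 5 WT mice. Samples are named by replicate, WT 1 to 5 and KO 7, 8, 10, 11 and 12. This is the number of the mouse in the titles, except for WT baseline replicate 1, whose title has none.

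These factors work as a network that binds many of the same liver enhancers. HNF4A is a nuclear receptor required for hepatocyte differentiation, and the FOXA proteins are pioneer factors that open chromatin for it. C/EBP alpha drives metabolic genes and restrains division, while C/EBP beta is induced in the acute phase response and in regeneration. PXR (Nr1i2) and CAR (Nr1i3) are nuclear receptors that sense drugs and bile acids and switch on cytochrome P450 and transporter genes, and LRH-1 (Nr5a2) governs bile acid and cholesterol genes. PRC2 places the repressive H3K27me3 mark on chromatin.

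The 4 genes that passed the test in at least 1 comparison of 2 groups are shown first by the 250 bases upstream of their RefSeq start (GRCm38.p6, for Nr5a2 the first of 2 listed starts), written 5′ to 3′ on the strand of the gene. Capitals mark the letters TATAAA, on either strand; in Nr5a2 the match lies on the opposite strand.
Cebpa, chr7:35119043-35119292, plus strand: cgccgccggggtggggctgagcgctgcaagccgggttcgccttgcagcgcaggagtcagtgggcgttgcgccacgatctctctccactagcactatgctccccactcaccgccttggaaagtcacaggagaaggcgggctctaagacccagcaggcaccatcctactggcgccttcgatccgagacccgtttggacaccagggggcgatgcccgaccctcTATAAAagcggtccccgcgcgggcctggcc
Nr5a2, chr1:136960449-136960698, minus strand: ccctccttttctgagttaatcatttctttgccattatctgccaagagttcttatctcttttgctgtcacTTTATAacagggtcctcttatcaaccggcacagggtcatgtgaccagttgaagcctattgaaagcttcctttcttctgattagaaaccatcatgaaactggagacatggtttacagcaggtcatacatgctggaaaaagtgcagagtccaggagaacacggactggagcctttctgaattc
Nr1i2, chr16:38294825-38295074, minus strand: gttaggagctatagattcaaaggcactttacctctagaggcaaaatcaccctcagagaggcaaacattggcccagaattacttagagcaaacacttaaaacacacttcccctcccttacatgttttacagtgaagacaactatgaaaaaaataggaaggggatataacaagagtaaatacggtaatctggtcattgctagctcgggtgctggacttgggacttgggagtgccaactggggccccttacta
Nr1i3, chr1:171213720-171213969, plus strand: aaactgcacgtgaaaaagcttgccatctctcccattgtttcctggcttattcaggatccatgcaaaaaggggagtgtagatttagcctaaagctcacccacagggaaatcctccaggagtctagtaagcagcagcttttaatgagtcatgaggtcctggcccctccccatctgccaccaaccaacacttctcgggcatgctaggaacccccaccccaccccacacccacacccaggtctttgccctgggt

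These 4 stretches were described by their CpG count and by the letters of known motifs. The Cebpa stretch holds 22 CpG dinucleotides, while those of Nr5a2, Nr1i2 and Nr1i3 hold 2 each, against a median of 6 (quartiles 2 and 16) over the same 250 bases upstream of 32851 listed starts. Among the other genes, Cebpb holds 41 CpG, Foxa1 21 and Foxa3 18. The 3 listed starts of Foxa2 hold 6, 20 and 13, and the 2 of Hnf4a hold 3 and 4. Genes that passed the test lie on both sides of the median. The TATAAA match of Cebpa starts at position -30 and that of Foxa3 at -36, and 12.4% of all promoters hold these letters. On both strands, the letters TGTTTAC (FOXA, in 3.17% of promoters) were found in Foxa1 alone, at -141, and TTGCNNAA (C/EBP, 9.56%) at the second start of Nr5a2 alone, at -243. CAAAGTCCA (HNF4, 0.384%) and TCAAGGTCA (NR5A, 0.387%) were in none of these windows. A match is a description of letters and not of binding.

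Libraries held between 21634890 and 30461351 counts. Levels in a library are given as CPM, the count scaled to a TMM-adjusted total of 1000000, and tests are edgeR quasi-likelihood tests with p-values adjusted over all 14661 genes in each comparison. A gene is called where the adjusted p is under 0.05. Eed itself ranged from 14.6 to 23.2 CPM over the 10 WT libraries and from 2.75 to 7.52 CPM over the 10 KO libraries, with no overlap (log2 fold change of -1.57 at baseline, edgeR adjusted p = 6.07e-05, and -1.99 after PHx, edgeR adjusted p = 4.39e-06). All 11 hepatocyte markers, Alb and Ttr among them, were detected in each group. Their summed level was 151050 to 173174 CPM in WT and 103235 to 136858 CPM in KO at baseline, and 110133 to 155119 CPM in WT and 57174 to 125839 CPM in KO after PHx. Summed markers of other cells also moved with genotype. At baseline, markers of cholangiocytes summed to 31.8 to 68.3 CPM in WT and 96.3 to 417 CPM in KO, those of macrophages to 206 to 353 and 552 to 718 CPM, and those of stellate cells to 262 to 425 and 602 to 734 CPM. Endothelial markers summed to 248 to 289 and 299 to 355 CPM, and cycling markers to 36.7 to 44.1 and 76.2 to 209.9 CPM. After PHx the endothelial sum was 124 to 224 CPM in WT and 134 to 272 CPM in KO, below the baseline range of its genotype in both. Within the cholangiocyte sum at baseline, Spp1 alone had a mean of 27.5 CPM in WT and 137 CPM in KO. The mean sums were 46.6 and 217 CPM. All 10 cholangiocyte markers tested had positive log2 fold changes at baseline, and 4 were called higher, beside 11.1% over all genes. No marker of these lists was at 0 in any group. In such bulk samples fewer hepatocytes and less RNA per hepatocyte cannot be told apart, and the part of this shift in the results below was not tested.

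The 9 genes spanned a wide range of levels. Per length, over all 20 libraries, Hnf4a had the highest mean at 133 RPKM (CPM per kilobase of exon), followed by Cebpb at 116, Cebpa at 89.4, Nr1i2 at 36.4, Foxa3 at 22.8, Nr1i3 at 17.2, Foxa2 at 10.1, Nr5a2 at 7.55 and Foxa1 at 5.09 RPKM. Neighbours in that order overlapped between libraries in every case. The lowest count behind any value was 135 reads, for Foxa3 in KO replicate 12 after PHx. Cebpa ranged from 21.5 to 215 RPKM over the libraries. Some of the genes share exons with a neighbour on the opposite strand. Nr1i3 shares 3304 of its 4414 exon bases with Tomm40l (5534 counts over all libraries, against 36969 for Nr1i3), Cebpb shares 312 of 1504 with Tmem189, and Cebpa shares 51 of 2636 with Gm45091, so if counting ignored strand, reads there cannot be assigned to one gene.

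**Figure D1:**
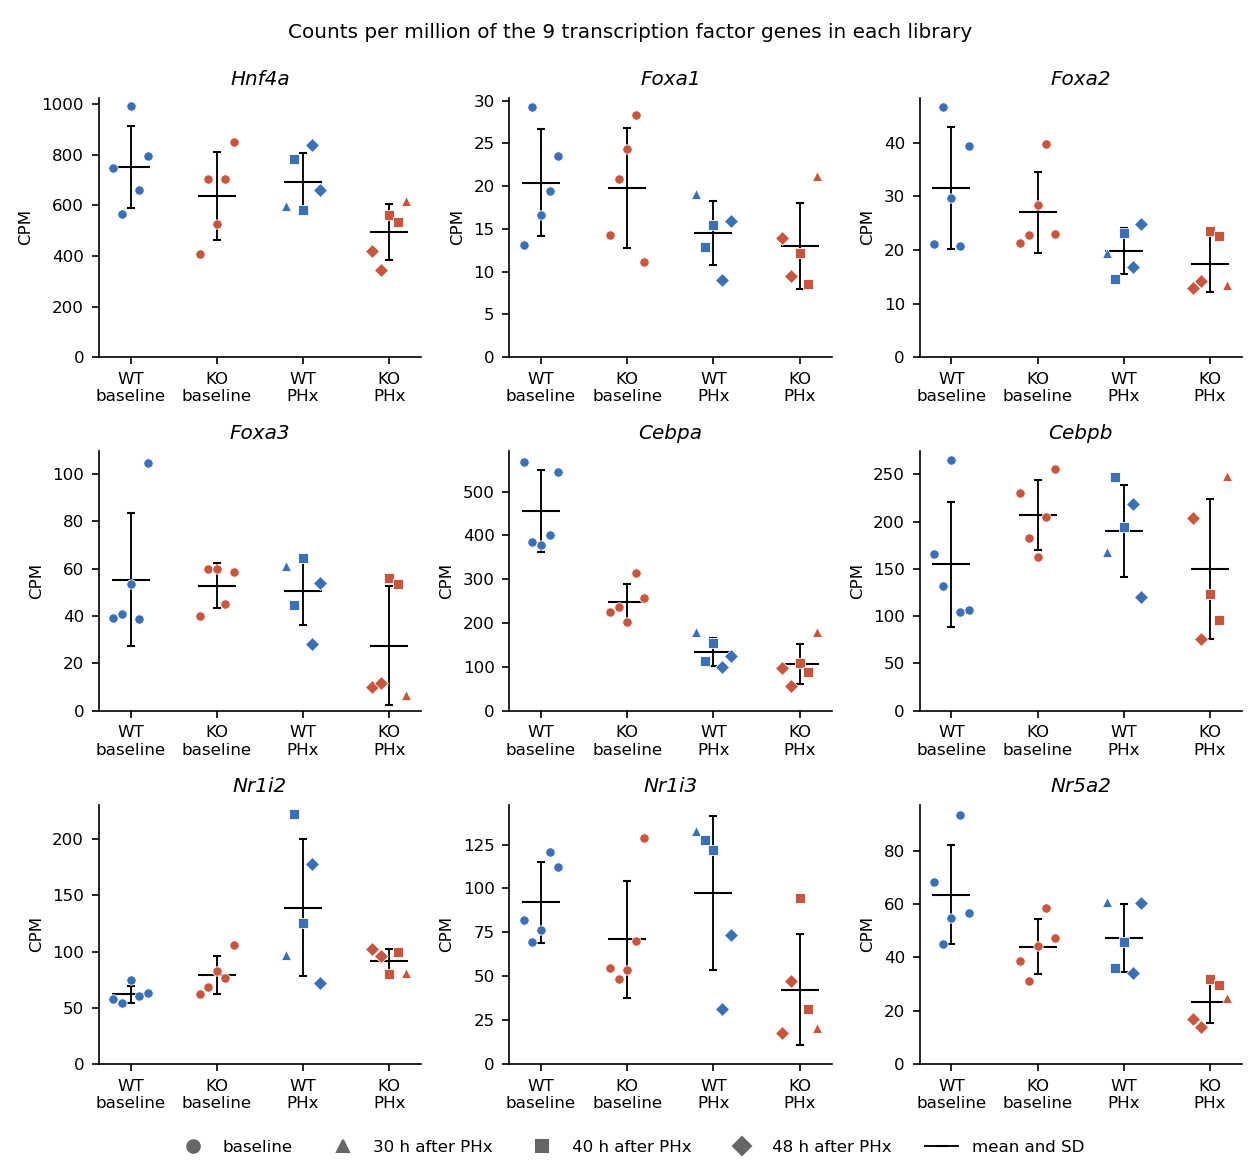
Level of each of the 9 genes in CPM (linear axis from 0) in every library, for WT (blue) and KO (red) at baseline and after PHx; symbols give the time after PHx, and the line and bar the mean and SD of 5 libraries. Cebpa goes from 379 to 567 CPM in WT at baseline to 98.5 to 179 CPM in WT after PHx, and Foxa3 in KO after PHx lies in 2 levels, 6.39 to 11.6 CPM and 53.5 to 56.1 CPM.

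In unoperated liver, Cebpa was lower in KO than in WT and no other of the 9 genes was called. This is 1 of 9 called lower and 0 of 9 called higher, beside 4.89% called lower and 11.1% called higher over all genes, so the count is near the background. With an unadjusted p under 0.05, edgeR gave 2 lower, Cebpa and Nr5a2, and 0 higher, beside 12.2% lower and 18.3% higher over all genes. DESeq2 called Cebpa alone, beside 6.14% lower and 14.6% higher over all genes. The median log2 fold change of the 9 was -0.22, against -0.03 for all genes tested. Hnf4a, Foxa1, Foxa2 and Foxa3 had log2 fold changes between -0.24 and -0.04, and these turned positive when libraries were scaled by library size alone, which moved the median of all genes to 0.45. That scaling also changed the split of calls over all genes from 1631 higher and 717 lower to 3521 higher and 113 lower.

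Cebpa, the C/EBP gene that keeps adult hepatocytes metabolic and quiescent, was measured at 567, 385, 379, 400.4 and 546 CPM in WT replicates 1 to 5 at baseline. In KO replicates 7, 8, 10, 11 and 12 it was at 225, 236, 202, 313 and 258 CPM. Each KO library lay below each WT library. The means were 455 ± 92.6 CPM and 247 ± 42.2 CPM (SD, n = 5 each), a log2 fold change of -0.88 (SE 0.25, 95% interval -1.40 to -0.37, edgeR adjusted p = 0.0190), or 1.84-fold lower. The call was lost without WT replicate 1 or 5 or KO replicate 7 or 10 of the baseline samples, with edgeR adjusted p between 0.0519 and 0.0881, and the log2 fold change stayed between -0.98 and -0.79 when any single library was left out. With library size alone it was -0.40 (edgeR adjusted p = 0.155), again below the median of all genes, 0.45.

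Cebpb did not follow Cebpa. It was at 166, 131, 265, 104 and 107 CPM in WT at baseline and at 230.1, 182, 163, 204 and 255 CPM in KO, with overlap (log2 fold change 0.42, 95% interval -0.23 to 1.07, edgeR adjusted p = 0.384). The ratio of the counts of the pair within a library does not depend on scaling. At baseline the ratio of Cebpa to Cebpb was 3.42, 2.93, 1.43, 3.83 and 5.10 in WT and 0.979, 1.29, 1.24, 1.53 and 1.01 in KO, so Cebpa had fewer counts than Cebpb in KO replicate 7. The lowest WT library, replicate 3, lay inside the KO range. After PHx the ratio was 0.45 to 1.06 in WT and 0.48 to 0.93 in KO, and these 2 ranges overlapped.

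**Figure D2:**
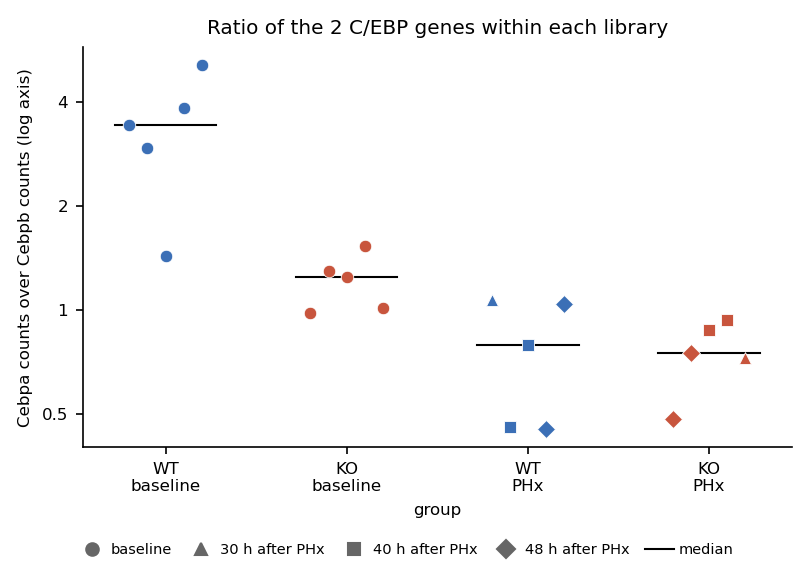
Counts of Cebpa divided by counts of Cebpb in each library on a log axis, by group, with the group median as a line and symbols for the time after PHx. The medians are 3.42 in WT and 1.24 in KO at baseline, and 0.79 and 0.75 after PHx.

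The nuclear receptors were not called at baseline. Nr5a2 was at 44.0 ± 10.2 CPM in KO and 63.5 ± 18.5 CPM in WT (SD, n = 5 each; log2 fold change -0.53, 95% interval -1.06 to -0.0016, edgeR adjusted p = 0.163), and 3 of 5 KO libraries lay below all WT libraries. Nr1i2 was at 79.1 ± 16.7 CPM in KO and 61.9 ± 7.72 CPM in WT (SD, n = 5 each; log2 fold change 0.35, edgeR adjusted p = 0.323). It was called higher with library size alone (edgeR adjusted p = 0.0169) and when the fit held the baseline samples alone (edgeR adjusted p = 0.0433). Nr1i3 was at 48.3 to 70.2 CPM in 4 KO libraries and 129 CPM in KO replicate 12, against 69.3 to 121 CPM in WT (log2 fold change -0.37, edgeR adjusted p = 0.591).

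After PHx, Nr5a2 and Nr1i3 were lower in KO than in WT, and all 9 genes had negative log2 fold changes, with a median of -0.49 against -0.01 for all genes tested. The calls are 2 of 9 lower, beside 8.2% called lower over all genes, and 0 of 9 higher, beside 16%. At an unadjusted p under 0.05, edgeR gave 4 lower (Nr5a2, Nr1i3, Nr1i2 and Hnf4a) and 0 higher, beside 14.9% lower and 21.6% higher over all genes. DESeq2 called 2 lower and 0 higher, beside 10.2% lower and 18.2% higher. With library size alone, 7 of the 9 were negative, with Foxa1 and Foxa2 turning positive, and none was called, beside 2.02% lower and 26.6% higher. The hepatocyte markers moved the same way, 10 of 11 having negative log2 fold changes with a median of -0.68 and 3 called lower. Some markers of other cells were called higher in KO after PHx: 7 of 10 cholangiocyte markers (median log2 fold change 2.93), 4 of 11 stellate markers (0.69) and 4 of 13 macrophage markers (0.57). Their summed levels were 29.3 to 248.8 CPM in WT and 178 to 653 CPM in KO for cholangiocytes, 240.4 to 360 and 368 to 700.4 CPM for stellate cells, and 98.8 to 415 and 178 to 469 CPM for macrophages. The part of cell content in these differences was not tested.

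Nr5a2, whose product controls bile acid and cholesterol genes, was at 60.7 (30 h), 36.0 and 45.7 (40 h), and 34.1 and 60.2 CPM (48 h) in WT after PHx. In KO it was at 24.7 (30 h), 31.8 and 29.5 (40 h), and 16.7 and 13.7 CPM (48 h). The highest KO library lay below the lowest WT library. The log2 fold change was -1.02 (SE 0.26, 95% interval -1.56 to -0.49, edgeR adjusted p = 0.00639), or 2.03-fold lower, and the call held when any 1 of the 20 libraries was left out. By time, the log2 fold change was -0.41 at 40 h (edgeR adjusted p = 0.427) and -1.63 at 48 h (edgeR adjusted p = 0.00407); the difference between the times was not tested. The call was lost with library size alone (-0.67, edgeR adjusted p = 0.0610) and in a fit of the samples after PHx alone (-0.99, edgeR adjusted p = 0.0546).

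Nr1i3, the gene of CAR, was at 133 (30 h), 128 and 122 (40 h), and 31.4 and 73.6 CPM (48 h) in WT after PHx. In KO it was at 20.6 (30 h), 94.7 and 31.4 (40 h), and 17.7 and 47.3 CPM (48 h). The groups overlapped, with WT replicate 4 at the KO median and 2 of the 5 KO libraries below all of WT. The log2 fold change was -1.20 (SE 0.43, 95% interval -2.10 to -0.30, edgeR adjusted p = 0.0474). When single libraries were left out in turn, 17 of 20 fits lost the call, with edgeR adjusted p between 0.0503 and 0.116, and it held without WT replicate 4 after PHx, KO replicate 12 at baseline or KO replicate 10 after PHx. It was also lost at 40 h (-0.99) and at 48 h (-0.69), each with fewer samples, with only the samples compared (-1.19, edgeR adjusted p = 0.167), with no filter (-1.21, edgeR adjusted p = 0.0516) and with library size alone (-0.81, edgeR adjusted p = 0.165).

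Foxa3, one of the pioneer factor genes, had the widest spread of the 9 in KO after PHx, with a highest library 8.78 times the lowest. The KO libraries were at 6.39 (30 h), 56.1 and 53.5 (40 h), and 9.89 and 11.6 CPM (48 h), while WT was at 61.0, 44.8, 64.4, 28.3 and 54.1 CPM in the same order of times. The 2 KO libraries of 40 h lay inside the WT range and the other 3 below it. Over all 5 the difference was not called (log2 fold change -0.88, 95% interval -1.88 to 0.13, edgeR adjusted p = 0.195). By time, the log2 fold change was 0.0045 at 40 h (edgeR adjusted p = 0.997) and -1.94 at 48 h (edgeR adjusted p = 0.00572), and with time as a term in the model it was -1.41 (edgeR adjusted p = 0.0219). Without KO replicate 10 after PHx it was -1.31 (edgeR adjusted p = 0.0425). The summed cycling markers of the KO libraries were 219 CPM at 30 h, 1497 and 314 CPM at 40 h, and 157 and 207 CPM at 48 h, so the 2 libraries with high Foxa3 were also those with the highest cycling sums; whether the 2 are linked was not tested.

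The other genes after PHx were not called between genotypes. Hnf4a was at 597, 783, 583, 838 and 661 CPM in WT replicates 1 to 5 and at 418, 343, 562, 532 and 617 CPM in KO replicates 7, 8, 10, 11 and 12, and 4 of 5 KO libraries lay below all WT libraries (log2 fold change -0.49, 95% interval -0.94 to -0.03, edgeR adjusted p = 0.112). By time, it was at -0.32 at 40 h (edgeR adjusted p = 0.529) and was called lower at 48 h, at -0.98 (edgeR adjusted p = 0.0400). Nr1i2 had a log2 fold change of -0.60 (95% interval -1.08 to -0.11, edgeR adjusted p = 0.0680), and was called without WT replicate 1 after PHx (-0.71, edgeR adjusted p = 0.0407) or without WT replicate 5 after PHx (-0.78, edgeR adjusted p = 0.0112). Cebpa, which had differed at baseline, was at 98.5 to 179 CPM in WT and 56.6 to 180.1 CPM in KO (log2 fold change -0.33, 95% interval -0.85 to 0.18, edgeR adjusted p = 0.346). Foxa1, Foxa2 and Cebpb had log2 fold changes between -0.35 and -0.15.

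**Figure D3:**
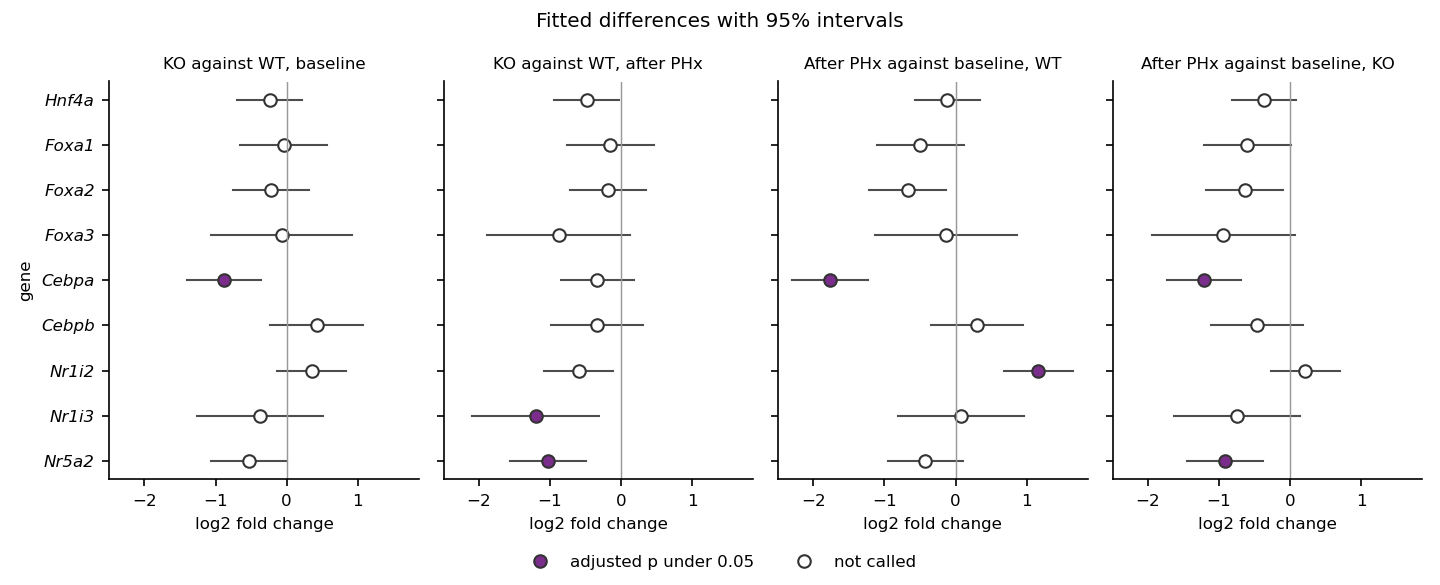
Fitted log2 fold change of each gene with its 95% interval in 4 comparisons; filled points have an adjusted p under 0.05. Cebpa is lower in KO at baseline (-0.88) and lower after PHx in both genotypes (-1.77 and -1.22), and all 9 points of KO against WT after PHx lie below 0.

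In WT, PHx was followed by a fall of Cebpa and a rise of Nr1i2, and the other 7 genes were not called. This is 1 of 9 lower and 1 of 9 higher, beside 8.68% lower and 11.4% higher over all genes. At an unadjusted p under 0.05, edgeR gave 2 lower, Cebpa and Foxa2, and 1 higher, beside 14.8% lower and 19.2% higher over all genes. Cebpa went from 455 ± 92.6 CPM to 134 ± 32.5 CPM (SD, n = 5 each), and each of the 5 libraries after PHx lay below each baseline library. The log2 fold change was -1.77 (SE 0.25, 95% interval -2.29 to -1.24, edgeR adjusted p = 1.45e-04), or 3.40-fold lower. Within the 4 WT mice whose titles number both samples, it fell in 4 of 4, by a log2 between -2.13 and -1.30.

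Nr1i2, the gene of the drug and bile acid receptor PXR, was at 57.7, 54.0, 74.4, 60.6 and 62.9 CPM in WT replicates 1 to 5 at baseline and at 97.0, 222, 126, 178 and 71.7 CPM after PHx. The ranges overlapped through WT replicate 5 at 48 h, and the other 4 libraries after PHx lay above all baseline libraries. The log2 fold change was 1.16 (SE 0.24, 95% interval 0.67 to 1.66, edgeR adjusted p = 0.00231), or 2.24-fold higher. It rose in 4 of 4 numbered mice, by a log2 of 0.19 to 2.04. The Cebpa and Nr1i2 calls held under all 29 alternatives tried for this comparison. WT replicates 1 and 5, with the lowest Nr1i2 after PHx, had summed cycling markers of 1168 and 1337 CPM, and the other 3 had 53.5, 143 and 73.8 CPM; whether the 2 are linked was not tested. The same 2 libraries had the highest Nr5a2 of the group, at 60.7 and 60.2 CPM.

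Hnf4a was at 692 ± 113 CPM in WT after PHx against 751 ± 161 CPM before (SD, n = 5 each; log2 fold change -0.12, 95% interval -0.57 to 0.34, edgeR adjusted p = 0.751). Foxa2 was at -0.67 (95% interval -1.21 to -0.14, edgeR adjusted p = 0.0694), and was called without WT replicate 4 at baseline (edgeR adjusted p = 0.0490). Foxa1, Foxa3, Nr5a2, Cebpb and Nr1i3 had log2 fold changes of -0.49, -0.13, -0.42, 0.29 and 0.08. The last rests on libraries from 31.4 to 133 CPM after PHx, and its sign turned with the mouse as a block (-0.22) and with time as a term (-0.0077).

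In KO, PHx was followed by falls of Cebpa and Nr5a2, and no gene of the 9 was called higher. This is 2 of 9 lower, beside 12.1% over all genes, and 0 of 9 higher, beside 17.5%. At an unadjusted p under 0.05, edgeR gave 3 lower and 0 higher, beside 18.1% lower and 24.6% higher over all genes. DESeq2 called 2 lower and 0 higher, beside 13.8% lower and 21% higher. Cebpa went from 247 ± 42.2 CPM to 106 ± 45.5 CPM (SD, n = 5 each), without overlap, a log2 fold change of -1.22 (SE 0.25, 95% interval -1.74 to -0.70, edgeR adjusted p = 0.00252). Nr5a2 was at 38.6, 31.1, 44.3, 58.5 and 47.4 CPM in KO replicates 7, 8, 10, 11 and 12 at baseline and at 16.7, 13.7, 31.8, 29.5 and 24.7 CPM after PHx. The log2 fold change was -0.92 (SE 0.26, 95% interval -1.45 to -0.39, edgeR adjusted p = 0.0128). Each of the 5 KO mice had less Cebpa and less Nr5a2 after PHx than before, by a log2 of -2.06 to -0.52 for Cebpa and -1.21 to -0.48 for Nr5a2. With library size alone the Nr5a2 call was lost (-0.67, edgeR adjusted p = 0.0550). The summed macrophage markers of KO were 552 to 718 CPM at baseline and 178 to 469 CPM after PHx, without overlap. Of the 13 macrophage markers, 4 were called lower, beside 12.1% over all genes, and 1 higher, Marco (2.42), beside 17.5%. The part of cell content in these changes was not tested.

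With the mouse as a replicate block over the 9 mice whose titles number both samples, 4 of the 9 genes were called lower in KO, beside 11.7% over all genes in that fit. Foxa2 (log2 fold change -0.66, edgeR adjusted p = 0.0462) and Foxa3 (-1.50, edgeR adjusted p = 0.0428) were added to Cebpa and Nr5a2. In the main fit of all 20 samples, Foxa2 was at -0.64 (edgeR adjusted p = 0.0657) and Foxa3 at -0.94 (edgeR adjusted p = 0.142). A fit of the same 18 samples without the block called 2 of the 9 lower in KO, beside 11% over all genes. Foxa2 was lower after PHx in 5 of 5 KO mice and 4 of 4 numbered WT mice. Without KO replicate 10 after PHx, 5 genes were called, with Foxa2, Foxa3 and Nr1i3 (-1.28, edgeR adjusted p = 0.0151) added, and calls lower over all genes rose to 17.6%. Without KO replicate 11 after PHx, 4 were called, with Foxa2 and Foxa3 added, beside 13% over all genes. Foxa1 was called without KO replicate 12 after PHx (-0.85, edgeR adjusted p = 0.0381), the 1 KO mouse in which it rose. With time as a term, 3 were called, with Foxa3 (-1.36, edgeR adjusted p = 0.0178) added, beside 15.2% lower over all genes.

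**Figure D4:**
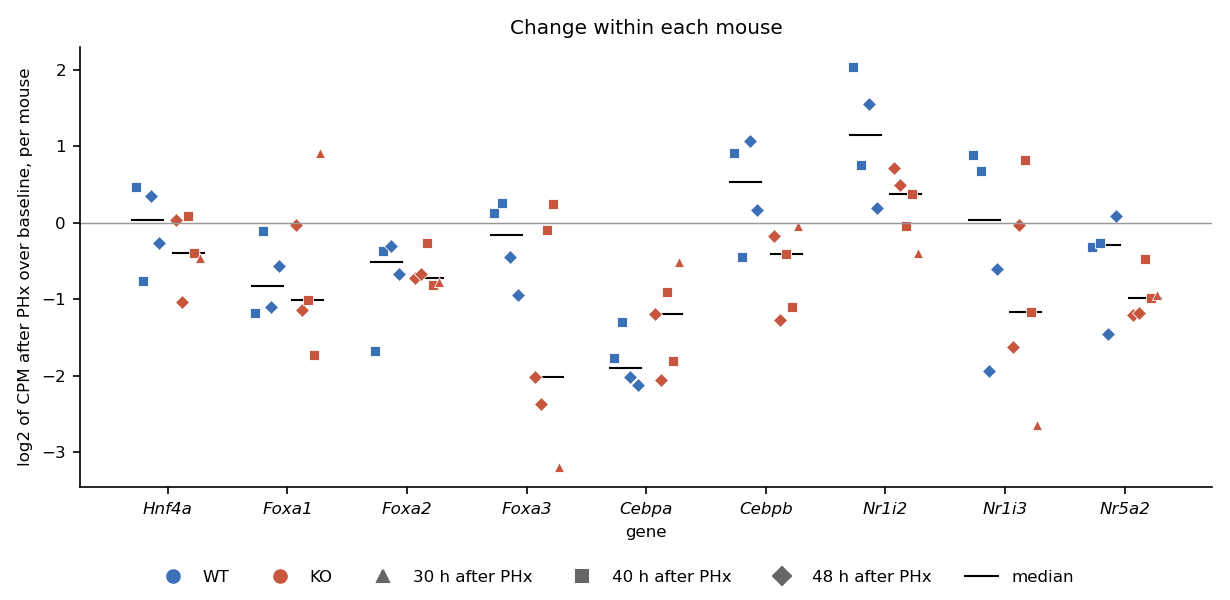
Log2 of CPM after PHx over CPM at baseline within each mouse, for 4 WT mice (blue) and 5 KO mice (red), with symbols for the time after PHx and lines for medians. Cebpa lies below 0 in all 9 mice and Nr5a2 in all 5 KO mice, while Nr1i2 lies above 0 in all 4 WT mice.

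The test of the difference between the responses of KO and WT called none of the 9 genes, beside 0.164% called higher and 0.225% called lower over all genes. At an unadjusted p under 0.05, edgeR gave 1 of 9 lower and 0 higher, beside 6.02% lower and 7.33% higher over all genes. DESeq2 called 0 of 9, beside 1.26% lower and 1.31% higher. The gene under that unadjusted p was Nr1i2, with log2 responses of 1.16 in WT and 0.21 in KO, a difference of -0.95 (95% interval -1.64 to -0.26, edgeR adjusted p = 0.213). Cebpb had responses of 0.29 and -0.47 and a difference of -0.76 (95% interval -1.68 to 0.15, edgeR adjusted p = 0.464). It was lower after PHx in 5 of 5 KO mice and higher in 3 of 4 WT mice. For Cebpa, with falls in both genotypes, the difference was 0.55 (95% interval -0.18 to 1.28, edgeR adjusted p = 0.510). The 95% intervals of 6 of the 9 genes reached beyond a log2 of 1 in size. Over all genes the number called in this test went from 24 higher and 33 lower to 412 higher and 296 lower without KO replicate 10 after PHx, and none of the 9 was among them.

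Of 24 other liver transcription factors measured, 5 were called lower in KO at baseline and 1 higher, beside 4.89% lower and 11.1% higher over all genes. Those lower include Nr1h4, the bile acid receptor FXR, at 57.7 ± 9.22 CPM in KO against 130 ± 23.4 CPM in WT (SD, n = 5 each; log2 fold change -1.18, edgeR adjusted p = 0.0127), Prox1 (-1.07) and Ppara, the fatty acid sensor (-1.07). The 1 higher was Foxm1, a cell cycle factor, at 0.15 and 2.79 CPM. After PHx, 2 were called lower in KO, Onecut2 (-1.10) and Cebpg (-1.03), and 4 higher, Gata4 (0.77), Gata6 (1.28) and Nr2f1 (2.36) among them, which is near the 8.2% lower and 16% higher over all genes. In both genotypes Onecut1, Klf15 and Nr0b2, the corepressor SHP, fell after PHx and Cebpd rose.

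Genes known as targets of the 9 factors were read from lists that share members, Apob, Alb, G6pc and Otc among them. Of 18 HNF4A targets, 5 were called lower in KO at baseline, beside 4.89% over all genes, and 1 higher, beside 11.1%. Their median log2 fold change was -0.84 against -0.03 for all genes, while Hnf4a itself was not called. Among those called, Pklr (-1.08), G6pc (-1.05) and Apob (-0.97) had the largest falls, and Apoc2 rose from 167 to 1135 CPM. Cyp8b1, an enzyme of bile acid synthesis, had a lower value still (-2.02) but was not called (edgeR adjusted p = 0.191). After PHx in WT, 10 of the 18 fell, beside 8.68% over all genes, and Apoc2 rose, with falls of G6pc (-2.25), which releases glucose, and Otc (-2.06), a urea cycle enzyme. In KO after PHx against baseline, 7 fell, beside 12.1%, and 2 rose, beside 17.5%, one of these Mttp (0.57). KO against WT after PHx gave 1 of 18 lower, Apoa1 (-0.84), near the 8.2% over all genes.

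In KO at baseline, 1 of 11 FOXA targets measured and 2 of 15 C/EBP alpha targets were called lower, beside 4.89% over all genes. After PHx, 2 of the 11 FOXA targets were lower in KO than in WT, beside 8.2% over all genes, the bile transporter genes Abcb11 (-1.51) and Abcc2 (-1.18). Afp, a fetal liver gene, was the 1 called higher, beside 16%, at 48.1 ± 61.2 CPM against 5.94 ± 5.46 CPM (SD, n = 5 each; log2 fold change 3.02, edgeR adjusted p = 0.0230). Of 15 C/EBP alpha targets, 14 had negative log2 fold changes in KO at baseline, with a median of -0.62, and G6pc was among those called lower. After PHx 2 of the 15 were lower in KO, Cyp2d22 (-0.86) among them. In each genotype, 4 of the 15 fell after PHx, beside 8.68% over all genes in WT and 12.1% in KO, G6pc (-2.25 in WT and -1.80 in KO) and Otc (-2.06 and -1.78) among them.

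Some of the acute phase genes, classic targets of C/EBP beta, differed between genotypes after PHx. In WT, 9 of 15 rose after PHx, beside 11.4% over all genes, with Lcn2 (log2 fold change 8.96), Saa2 (7.86) and Saa1 (6.34) the largest. In KO, 5 rose, beside 17.5%, and 1, Crp, fell, beside 12.1%. After PHx, 6 of 15 were called lower in KO than in WT, beside 8.2% over all genes, with a median of -0.96. Apcs, serum amyloid P, was at 54.5 ± 15.3 CPM in KO and 300.1 ± 99.2 CPM in WT (SD, n = 5 each; log2 fold change -2.46, edgeR adjusted p = 6.14e-06). The test of the difference of responses called 4 of the 15 lower, Apcs (-1.97), Orm2 (-2.51), Saa1 (-4.22) and Saa2 (-5.13), beside 0.225% over all genes. At baseline, Lcn2, Saa1, Saa2 and Orm2 were higher in KO, 4 of 15 beside 11.1% over all genes, with log2 fold changes of 3.34, 1.96, 2.84 and 2.65. Saa1 and Saa2 are near-identical genes, and reads could be lost or split between them.

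CAR and PXR targets were called in both directions, except for PXR targets in KO against WT after PHx. In KO at baseline, Cyp2b10, the classic CAR target, was at 133 ± 78.6 CPM against 6.89 ± 6.48 CPM in WT (SD, n = 5 each; log2 fold change 4.27, edgeR adjusted p = 9.51e-04), while Nr1i3 was not called. Cyp2c55 (3.51) and Abcc4 (1.78) also rose, and Aldh1a1 fell (-1.02), which made 3 higher and 1 lower of 18 CAR targets, near the 11.1% higher and 4.89% lower over all genes. After PHx, Nr1i3 was called lower in KO, a call lost in 17 of 20 fits with 1 library left out. Among CAR targets there, Cyp2b10 (3.02) and Abcc4 (1.98) were higher in KO and Aldh1a1 (-1.40) and Abcc2 (-1.18) were lower. This was 2 of 18 each, beside 16% higher and 8.2% lower over all genes. Of 16 PXR targets, 4 were higher in KO at baseline, beside 11.1% over all genes, Abcb1a (2.81) and Gsta1 (2.08) among them. There, 3 were lower, beside 4.89%, Slco1a4 (-1.22), Aldh1a1 and Cyp3a25 (-0.93). Between genotypes after PHx, 3 of 16 PXR targets were lower in KO, beside 8.2%, and 0 were higher, beside 16%. Those lower were Cyp3a25 (-1.58), Slco1a4 (-1.49) and Aldh1a1 (-1.40). After PHx in WT, where Nr1i2 rose, 3 PXR targets rose, beside 11.4% over all genes, Abcb1a (3.72), Gsta1 (3.39) and Por (2.26), and 4 fell, beside 8.68%.

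Of 13 LRH-1 targets, 10 had negative log2 fold changes after PHx in WT and 12 in KO. In KO, 8 of 13 fell, beside 12.1% over all genes, with a median of -1.27 against 0.10 for all genes. They include the bile salt pump Abcb11 (-2.23) and Plk3 (-1.73). In WT 5 of 13 fell, beside 8.68%, Cyp8b1, which sets the kind of bile acid made (-3.38), among them, although Nr5a2 was not called. Between genotypes after PHx, 4 of 13 were lower in KO, beside 8.2%, with Apom (-1.68), Abcb11 (-1.51) and Plk3 (-0.96) the largest, and the sterol transporter gene Abcg5 was higher (1.00). Among 17 coregulators measured, 1 was called lower at baseline, Ncor1 (-0.58), near the 4.89% over all genes, and 4 were higher in KO after PHx, beside 16%, Ncoa3 (0.86), Ncoa1 (0.71) and Ep300 (0.65) the largest.

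**Figure D5:**
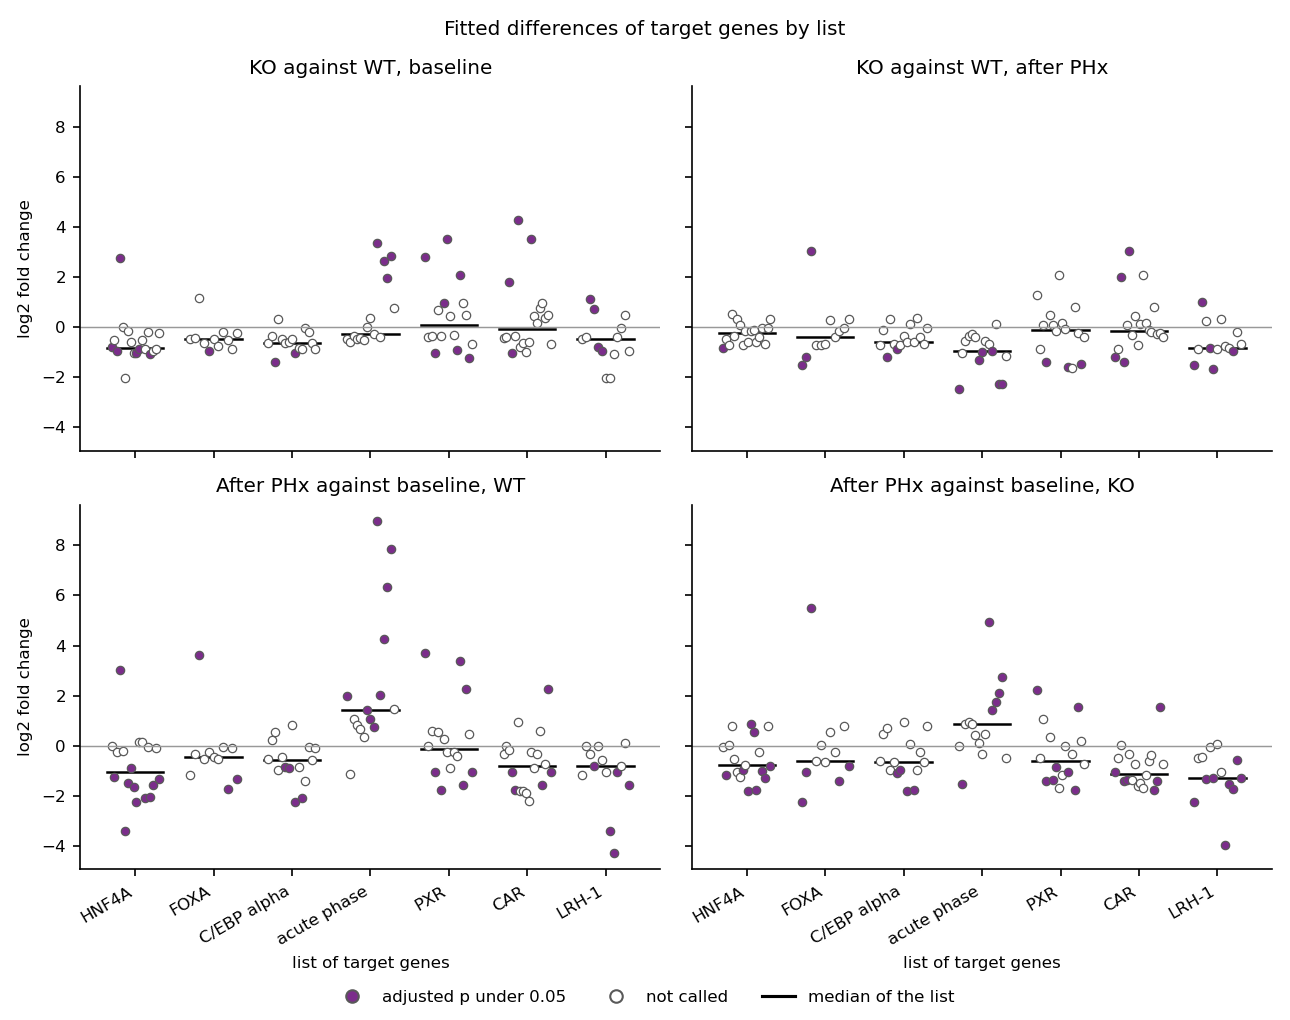
Log2 fold change of each measured gene of 7 lists of target genes in 4 comparisons; filled points have an adjusted p under 0.05 and black lines are list medians. In WT after PHx the acute phase list has a median of 1.43, and HNF4A targets have a median of -1.06 there and -0.84 in KO at baseline.

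Across the 20 libraries, which share groups and scaling, the highest Pearson correlations of log2(CPM + 1) between members were 0.74 for Cebpa and Nr5a2 and 0.72 for Foxa3 and Nr1i3. The lowest were those of Nr1i2 with Cebpa (-0.64), Foxa2 (-0.54) and Foxa1 (-0.53). Among 11944 protein-coding genes compared, the pattern of Cebpa was most like those of Qdpr and Otc (0.95 each), and that of Nr5a2 most like Ubqln1 (0.96) and Cnpy3 (0.93). Nr1i3 was most like Reep6 (0.92), Foxa3 like Arhgef15 (0.91), Nr1i2 like Rhbdd2 (0.90), Foxa2 like Trim65 (0.86) and Hnf4a like Arhgef12 (0.84). Cebpb and Foxa1 had the weakest best matches, H2-D1 (0.75) and Dbi (0.73).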

How the data were processed

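Poly(A) RNA of 20 mouse liver samples was read paired-end from TruSeq libraries, from RNA with an integrity number above 8. The authors deposited raw read counts, as whole numbers for each Ensembl identifier. Per the labels' design text, fastp 0.20.0 trimmed the reads with FastQC 0.11.5 run before and after, the genome was mm10 and counting used uniquely mapped reads, while the submitters' processing notes name Trimmomatic 0.36 for trimming. The aligner, counting program and strand setting are not given in the sources used here. Unique mapping loses reads of near-identical genes.

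Symbols, coordinates and exon lengths came from GENCODE M21 (GRCm38), which holds 46005 of 46603 identifiers. No 2 libraries were identical. The 4 group means were fitted to all 20 samples with edgeR 4.0.16 in R 4.3.3 (TMM, filterByExpr, two-sided quasi-likelihood test, Benjamini-Hochberg), which left 14661 genes and gave 5 comparisons. Nothing in the labels says that mice were littermates. This fit does not use the pairing of baseline and PHx samples by mouse, and its p-values measure the spread between libraries within groups. The test was checked on simulated counts in which 200 of 14661 genes, drawn from all levels, changed by a log2 of 1. It recovered 24% at baseline, 22.5% after PHx, 20.5% for the WT response, 18% for the KO response and 0% for the difference. In the data, more than 200 genes were called in each comparison of 2 groups, so the adjusted threshold was less strict there. Changes of that size can thus be missed, but the share missed in the data was not measured.

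The members and the lists were chosen with earlier results of these data known. Besides the 9 members, the text names Eed, hepatocyte markers, overlapping genes, up to 3 called genes with the largest rise and 3 with the largest fall per list and comparison (at least 1 CPM in either group), and the genes most correlated with each member. Some genes that this rule names are not reported here. Where the text gives the 4 acute phase genes of the difference of responses, or higher at baseline, all called genes are named.

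Sample numbers in the titles name the mouse, so baseline and PHx samples pair within 9 mice (the title of WT baseline replicate 1 has no number). Residuals of the same mouse correlated at -0.05 to 0.15 (median 0.04) and those of other pairs at -0.23 to 0.26. Alternatives were another scaling (library size, DESeq2 size factors), the DESeq2 1.42.0 Wald test, no filter or a CPM filter (1 CPM in 5 samples), a time term, only the samples compared, 40 h or 48 h alone, the replicate block, and each library left out. A fit of the 18 paired samples without the block was chosen after seeing the data. Upstream sequences came from RefSeq, and all 9 genes matched.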

Additional observations from a re-analysis of the deposited data

How the results depend on the processing

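Of 45 tests of single genes, 7 were called, and over 201 alternative fits these kept their direction throughout and their call in 169. Of 1077 fits of the 38 uncalled values, 1008 kept direction and side, 19 became called and 50 turned sign, none of these called. The shares in parentheses are those called over all genes in the same fit. The count of genes called at baseline, 1, was 2 with library size alone (Cebpb and Nr1i2, both higher; 24% higher), 0 with no filter (1.35% lower, 6.3% higher) and 2 with only the samples compared (1 lower, 1 higher; 18% lower, 21.4% higher). It was 0 to 1 when a library was left out (2.07% to 6.25% lower). After PHx the count of 2, all lower, was 0 with library size alone (2.02% lower), 1 with no filter (3.72%), 0 with only the samples compared (1.57%), 0 at 40 h (4.68%), 3 at 48 h (10.7%), 3 with the time term (9.88%) and 1 to 3 with a library left out (5.12% to 14.4%). The count in the KO response, 2 and all lower, was 1 with library size alone (6.55% lower), 4 with the replicate block (11.7%), 3 with the time term (15.2%) and 2 to 5 with a library left out (7.43% to 17.6%). In the WT response (2) and the difference of responses (0) the block changed no call. With library size alone, signs turned at baseline for Hnf4a (0.23), Foxa1 (0.41), Foxa2 (0.23), Foxa3 (0.38) and Nr1i3 (0.075), after PHx for Foxa1 (0.15) and Foxa2 (0.19), in the WT response for Hnf4a (0.24) and Foxa3 (0.21), and in the difference for Foxa2 (-0.039). The same scaling moved the median of all genes from -0.03 to 0.45 at baseline, -0.01 to 0.37 after PHx, 0.04 to 0.40 in WT and 0.10 to 0.37 in KO. With no filter, Foxa1 was 0.020 at baseline and Foxa2 -0.043 in the difference. At 40 h, Foxa2 was 0.29 and Foxa3 0.0045. With the time term, Nr1i3 in WT was -0.0077 and Foxa2 in the difference -0.015. The replicate block turned Nr1i3 in WT (-0.22) and Foxa1 in the difference (0.12), as did the 18 paired samples without it (-0.095 and 0.13). With a library left out, values spanned 0 for Foxa1 (-0.21 to 0.12) and Foxa3 (-0.18 to 0.29) at baseline, Hnf4a (-0.21 to 0.0021), Foxa3 (-0.24 to 0.23) and Nr1i3 (-0.055 to 0.37) in WT, and Foxa1 (-0.35 to 0.050) and Foxa2 (-0.15 to 0.21) in the difference. The cause of these changes was not tested. The time-specific fits and those of fewer samples have fewer libraries per group. The 9 genes had at least 135 counts in each library, while levels under 1 CPM, as of Foxm1 in WT at baseline, rest on few counts.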
